A study of Mus musculus with 12 samples.

Results

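The AP-1 family of mouse consists here of the 4 Fos genes (Fos, Fosb, Fosl1 and Fosl2) and the 3 Jun genes (Jun, Junb and Jund). All 7 were found by symbol among the 54446 gene identifiers of the count tables. The family was selected on a measured value, the level of Fosl2 by genotype in the cerebellum. Results for immediate early genes by genotype in the hippocampus were also known by then. Poly(A) RNA of mouse hippocampus and cerebellum had been sequenced to ask how loss of Syt14 bears on mood-related behaviour and motor coordination. The 12 libraries form 4 groups of 3: hippocampus and cerebellum labelled SYT14 knockout, and hippocampus and cerebellum labelled WT. Animal numbers in the labels show that 6 animals gave both tissues, 3 of each genotype. The sources used here do not give age, strain, sex or treatment of the animals, nor how and where the gene was altered.

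AP-1 is a dimer of transcription factors. A Jun protein pairs with another Jun or with a Fos protein through a leucine zipper, and Fos proteins bind DNA only with such a partner. In neurons Fos, Fosb and Junb are immediate early genes, which calcium and kinase signalling switch on within minutes of synaptic activity, while Jund is transcribed steadily and Fosl2 is known as a slower member. A truncated Fosb protein outlasts the others after repeated stimulation, and counts per gene cannot separate it from the full-length form.

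The members lie on 6 chromosomes of GRCm38. Fos lies on the plus strand at chr12:85473890-85477273, Fosb on the minus strand at chr7:19302696-19310051, Fosl1 on the plus strand at chr19:5447547-5455946 and Fosl2 on the plus strand at chr5:32135801-32157842. Jun lies on the minus strand at chr4:95049034-95052222, Junb on the minus strand at chr8:84974484-84978718 and Jund on the plus strand at chr8:70698949-70700616. All 7 are protein coding. Genes on the opposite strand share annotated exon bases with 4 of them: Ccdc85b shares 1163 bases with Fosl1, Prdx2 173 with Junb, Junos 232 with Jun and Gm11175 877 with Jund. The libraries kept strand, but the sources used here do not give the strand setting of the counting, so reads in those stretches cannot be assigned to one strand. Ccdc85b held 1738 to 2601 counts per library against 246 to 622 for Fosl1, and Prdx2 held 2836 to 4921 against 286 to 2660 for Junb, so the values of both members are uncertain to that extent. Junos held 38 to 89 counts and Gm11175 held 0 counts in every library. That 0 does not show how reads in the 877 bases shared with Jund were counted, so the level of Jund is uncertain too.

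The start regions of Fos, Fosl2 and Jun are shown because the genotype groups of Fosl2 and Fos were apart in the cerebellum and those of Jun, their partner, overlapped. The sequences are RefSeq windows on GRCm38.p6, from 250 bases before the annotated start to 50 bases from it on, 5′ to 3′ on the strand of the gene: chr12:85473640-85473939 (plus strand) for Fos, chr5:32136222-32136521 (plus strand) for Fosl2 and chr4:95052173-95052472 (minus strand) for Jun. Capitals mark matches, on either strand, to the searched motifs named after the sequences, except TATAAA, which is left in lower case.
Fos: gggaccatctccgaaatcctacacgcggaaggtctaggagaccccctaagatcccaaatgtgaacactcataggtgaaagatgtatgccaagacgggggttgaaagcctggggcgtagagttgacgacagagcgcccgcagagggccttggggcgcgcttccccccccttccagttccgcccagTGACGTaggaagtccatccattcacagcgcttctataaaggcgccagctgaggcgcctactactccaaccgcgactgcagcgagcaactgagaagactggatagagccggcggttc
Fosl2: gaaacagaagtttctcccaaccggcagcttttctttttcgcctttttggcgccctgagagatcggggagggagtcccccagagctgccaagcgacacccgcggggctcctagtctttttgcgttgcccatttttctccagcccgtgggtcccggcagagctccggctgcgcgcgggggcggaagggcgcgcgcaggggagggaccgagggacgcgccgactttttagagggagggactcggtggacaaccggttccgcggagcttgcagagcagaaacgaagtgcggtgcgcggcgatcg
Jun: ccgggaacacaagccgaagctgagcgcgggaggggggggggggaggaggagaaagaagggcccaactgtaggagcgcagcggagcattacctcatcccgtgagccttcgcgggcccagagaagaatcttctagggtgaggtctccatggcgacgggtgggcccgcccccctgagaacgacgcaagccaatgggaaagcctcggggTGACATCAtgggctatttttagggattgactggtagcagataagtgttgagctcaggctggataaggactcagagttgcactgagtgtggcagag
The searched motifs were TGACTCA, the classical AP-1 site; TGACGTCA, the cAMP response element; its first 6 letters TGACGT, which every full element contains; TGACATCA, a variant known from the Jun promoter; the CArG box bound by serum response factor; and TATAAA, the TATA box. Fos holds TGACGT starting at position -66 from the start site, and 7.64% of 27025 gene windows of the same length hold it. Jun holds TGACATCA starting at position -45, found in 3.76% of windows. TATAAA, found in 14.2% of windows, starts at position -33 in Fos and at position 1 in Junb. These were the only matches in the 6 windows, so those of Fosl2, Fosb and Jund hold none. The RefSeq start can differ from the gene start given above: the Jund window, chr8:70697489-70697788, lies wholly before that gene start, and the Fosl2 window lies wholly inside the gene. TGACTCA occurs in 5.17%, TGACGTCA in 1.88% and the CArG box in 1.57% of windows. A match describes letters in this window and not a bound site. Of the 7 members 6 had a window, and Fosl1 had none.

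The libraries held 24355572 to 34971359 counts, with a mitochondrial share of 3.76 to 4.52%. Levels are given in CPM, the count relative to the library size, scaled by TMM factors over all 12 libraries. Markers matched the tissue labels: Gabra6, a receptor subunit of cerebellar granule cells, stood at 554 to 629 CPM in the cerebellum and at most 0.0393 CPM in the hippocampus, and the 8 hippocampal neuron markers summed to 746 to 802 CPM in the hippocampus against 119 to 141 CPM in the cerebellum. Syt14 stood at 29.2, 28.0 and 30.6 CPM in knockout against 38.5, 38.9 and 38.1 CPM in wild-type hippocampus, and at 30.6, 30.7 and 30.3 against 33.8, 33.3 and 38.2 CPM in the cerebellum. Reads outside the altered part of the gene check nothing about the knockout. Choroid plexus was unevenly present in the cerebellum samples, with the 8 markers summing to 976, 1790 and 27.3 CPM in knockout libraries 1, 2 and 3 and 1970, 2680 and 1060 CPM in the wild type.

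To compare genes, levels were divided by the union of annotated exons, 9.68 kb for Fosl2 and 1.668 kb for Jund. Which part of that union was transcribed is not known, so the order of genes depends on this divisor. Before division, wild-type hippocampus had means of 68.3 CPM for Fosl2, 68.1 CPM for Junb and 70.3 CPM for Jund. Per kilobase of annotated exon, the Jun genes had the highest levels of the family in the hippocampus. Jund had 42.1 ± 3.64, Jun 38.9 ± 0.295 and Junb 29.6 ± 7.21 CPM per kb in wild-type hippocampus (SD, n = 3). The Fos genes followed with Fosl2 at 7.05 ± 0.124, Fos at 5.66 ± 3.74, Fosl1 at 4.83 ± 0.271 and Fosb at 1.46 ± 0.432 CPM per kb. The ranges of Jund and Jun overlapped, as did those of Fosl2 and Fos and of Fos and Fosl1, and the other neighbours in this order were apart. In wild-type cerebellum the order changed: Jund led with 50.4 ± 1.502 CPM per kb, 50.6% of the summed level of the family, followed by Jun at 23.7 ± 1.85 and Fos at 10.8 ± 5.17. Fosl1 at 8.20 ± 0.538, Junb at 5.35 ± 1.79, Fosl2 at 0.875 ± 0.0583 and Fosb at 0.186 ± 0.120 CPM per kb came after it, and only Fos and Fosl1 overlapped among neighbours. The knockout kept this sequence of genes in each tissue. Its overlapping neighbours in the hippocampus were Jund with Jun, Jun with Junb and Fosl2 with Fos, and in the cerebellum no neighbours overlapped. The places of Fosl1, Junb and Jund in these orders carry the limit on strand given above.

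**Figure D1:**
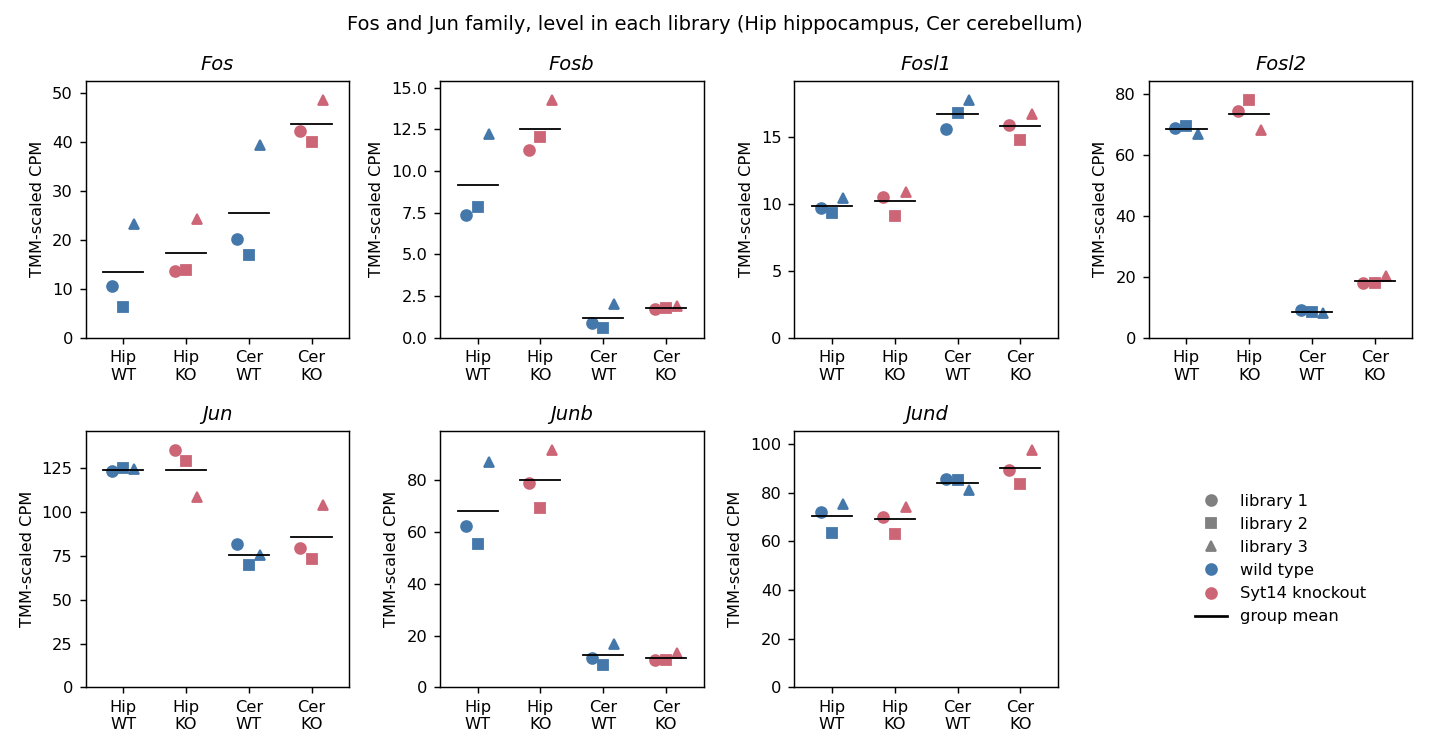
Level of each member (vertical axes, TMM-scaled CPM, linear from 0) in the 12 libraries, by tissue and genotype, with a bar at the mean of each group of 3. Fosl2 sits at 17.9 to 20.3 CPM in the knockout cerebellum against 8.02 to 9.10 CPM in the wild type, and the triangles of library 3 stand high for Fos, Fosb and Junb in both tissues.

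The tissue comparison asked where each member is expressed at baseline, and was made apart in wild type and in knockout, which share no library. In both, Fosb, Fosl2, Junb and Jun were higher in the hippocampus and Fos, Fosl1 and Jund were higher in the cerebellum. All 7 members passed the edgeR quasi-likelihood test at a Benjamini-Hochberg adjusted p under 0.05. This share is to be read against a high background: 66.1% of 18128 genes tested passed in the wild type and 64.1% of 18200 in the knockout, so passing is common among all genes. By direction, 4 members were higher in the hippocampus, beside 33.1% of genes in the wild type and 31.6% in the knockout, and 3 were lower, beside 33% and 32.5%. The groups did not overlap for 6 members in the wild type, Fos being the exception, and for 7 in the knockout, where 70.7% and 70.3% of genes did not overlap. All hippocampus columns carry the code L1 in the headers and all cerebellum columns L4, so that code and the tissue cannot be told apart. In bulk tissue, fewer cells of a type and less RNA per cell cannot be told apart either.

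In the wild type the difference of Fosl2 and that of Fosb were the largest and lay within the SE of each other, and in the knockout those of Fosb and Junb exceeded that of Fosl2. The wild-type level of Fosl2 was 68.6, 69.3 and 66.9 CPM in the hippocampus and 9.10, 8.29 and 8.02 CPM in the cerebellum, with a log2 difference of 3.02 ± 0.07 (SE, edgeR adjusted p = 4.03e-13). In the knockout the log2 difference was 1.96 ± 0.08 (adjusted p = 2.36e-08). Both differences of Fosl2 contain the cerebellar values on which the family was singled out, so their sizes and p-values are not independent of that choice. Fosb, whose truncated product is tied to long-lasting stimulation, stood at 7.35, 7.83 and 12.2 CPM in wild-type hippocampus and 0.910, 0.565 and 2.005 CPM in wild-type cerebellum. Its log2 difference was 2.98 ± 0.34 in the wild type (adjusted p = 5.02e-06) and 2.80 ± 0.14 in the knockout (1.35e-07). The cerebellar Fosb values rest on 21 to 66 counts per library.

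Junb, in many settings a weaker activator than Jun, stood at 62.3, 55.2 and 86.8 CPM in wild-type hippocampus and 11.3, 8.77 and 16.8 CPM in wild-type cerebellum. The log2 difference was 2.47 ± 0.20 in the wild type (edgeR adjusted p = 2.14e-07) and 2.79 ± 0.12 in the knockout (4.43e-08). Jun, the founding Jun protein, differed less. It stood at 123, 125 and 124 CPM in wild-type hippocampus and 81.6, 69.8 and 75.3 CPM in wild-type cerebellum, with a log2 difference of 0.72 ± 0.06 (1.36e-07) and of 0.53 ± 0.13 in the knockout (0.00440).

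Fos, the prototype of the family, went the other way. In wild-type cerebellum it stood at 20.2, 16.8 and 39.4 CPM and in wild-type hippocampus at 10.5, 6.31 and 23.2 CPM, so the groups overlapped. Its log2 difference was -0.94 ± 0.38 in the wild type (edgeR adjusted p = 0.0458) and -1.34 ± 0.19 in the knockout (2.08e-04). The wild-type call was lost with DESeq2 (adjusted p = 0.240) and without hippocampus library 1 (log2 -0.79), hippocampus library 2 (-0.60) or cerebellum library 3 (-0.47), while with the animal as a block the adjusted p was 6.23e-06. Fosl1, with the limit on strand given above, had -0.76 ± 0.09 in the wild type (1.20e-05) and -0.64 ± 0.10 in the knockout (2.90e-04). Jund had -0.25 ± 0.06 (0.00288) and -0.39 ± 0.07 (0.00104). With library sizes only, in place of TMM factors, the median of all genes moved from -0.02 to -0.16 in both genotypes and the calls from 6005 higher among 11986 to 4852 among 12459 in the wild type, and no member changed direction.

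Within single animals the directions were uniform. Fosb, Fosl2, Jun and Junb were higher in the hippocampus in 6 of 6 animals and Fos, Fosl1 and Jund in 0 of 6. The hippocampus level was 6.10 to 13.8 times the cerebellum level for Fosb and 5.16 to 7.39 times for Junb. For Fosl2 the ratio was 7.54, 8.36 and 8.35 in the wild-type animals and 4.14, 4.36 and 3.34 in the knockout animals. The genotypes were apart, but these ratios contain the cerebellar values on which the family was singled out and are a description. For Jun it was 1.51 to 1.79 in the wild-type animals, and 1.70, 1.77 and 1.04 in the knockout animals, the last being animal 3. Fos was 1.70 to 3.09 times as high in the cerebellum as in the hippocampus of the same animal.

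**Figure D2:**
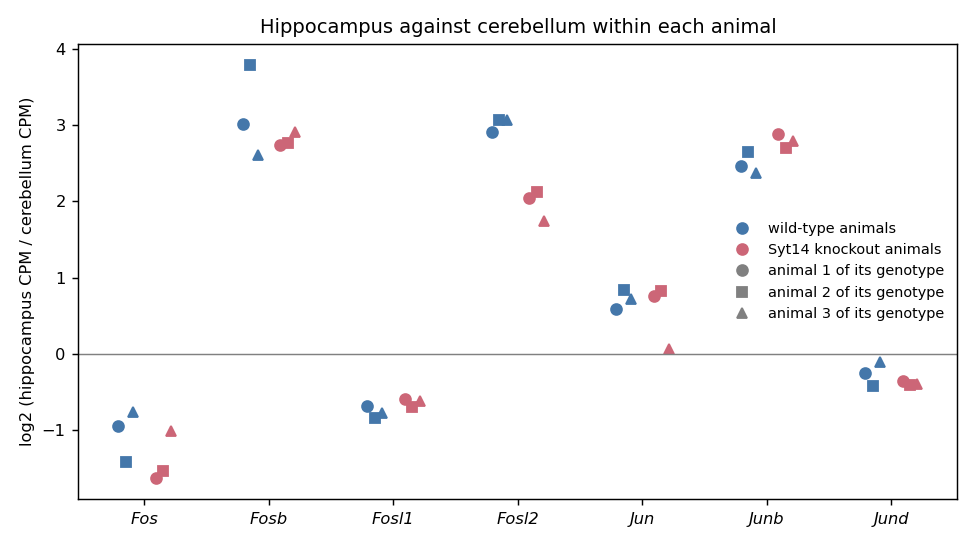
Log2 ratio of the hippocampus level to the cerebellum level (vertical axis) for each member in each of the 6 animals, coloured by genotype. Fosl2 lies between 2.91 and 3.06 in the wild-type and between 1.74 and 2.12 in the knockout animals, and Jun of knockout animal 3 lies near 0 at 0.06. The Fosl2 ratios contain the cerebellar values on which the family was singled out.

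The comparison of genotypes in the cerebellum asked what differs with the knockout in a region of motor control. It is also the comparison whose earlier result for Fosl2 led to this family being singled out, so its values are a description and carry no test here. Fosl2 stood at 17.9, 17.9 and 20.3 CPM in the knockout and at 9.10, 8.29 and 8.02 CPM in the wild type. Each knockout value exceeded the highest wild-type value, with 18.7 ± 1.41 against 8.47 ± 0.564 CPM (SD, n = 3) and a log2 fold change of 1.15 ± 0.09 (SE). The raw counts behind it were 487 to 613 against 230 to 308. Over the 13 alternative settings the log2 fold change of Fosl2 lay between 1.085 and 1.196.

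Fos stood at 42.2, 39.99 and 48.5 CPM in the knockout and at 20.2, 16.8 and 39.4 CPM in the wild type. The groups did not overlap, but wild-type library 3 was close to the lowest knockout library, and the log2 fold change was 0.77 ± 0.24 (SE). Without wild-type library 3 it was 1.24, and over the 13 alternative settings it lay between 0.54 and 1.24. Fosl2 showed no such rise in wild-type library 3, where it had its lowest level of the 12 libraries, 8.02 CPM.

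The genotype groups of the other 5 members overlapped in the cerebellum. Fosb, near the low end of detection, stood at 1.69, 1.77 and 1.89 CPM in the knockout and 0.910, 0.565 and 2.005 CPM in the wild type, with a log2 fold change of 0.62 ± 0.38. It was 1.30 without wild-type library 3, where Fosl2 was 1.11, and 0.27 without wild-type library 2. Jun had 79.6, 72.9 and 103.7 against 81.6, 69.8 and 75.3 CPM, and a log2 fold change of 0.18 ± 0.11, and knockout library 3 alone stood above the rest. Without that library the value of Jun was 0.02. Jund had 0.10 ± 0.06, Fosl1 -0.08 ± 0.08 and Junb -0.10 ± 0.20. Without wild-type library 3 the value of Junb was 0.20. Over all genes 0.0113% of 17733 were past the threshold (2 genes), Fosl2 among them, and nothing is read from this, since the family was chosen for that value. The groups of 2 members, Fosl2 and Fos, did not overlap, where 11.9% of genes had such groups, 6.48% with the knockout higher. With the replicate number of the labels as a block, 36 genes were past it in place of 2.

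Summed marker levels differed between some of these libraries. The 10 brainstem markers summed to 75.2, 105 and 58.5 CPM in the knockout cerebellum and 62.2 to 69.0 CPM in the wild type. Of the 6 tested, 5 had log2 fold changes above 0 and 0 were called, with a median of 1.88, and Slc6a2, the noradrenaline transporter, stood at 6.37, 14.5 and 0.232 against 1.98, 0.431 and 0.516 CPM. Knockout library 3, with the lowest brainstem and choroid plexus sums of the 6, had the highest Fosl2 and Fos of the 6. The 9 microglia markers summed to 145 to 157 CPM in the knockout and 126 to 133 CPM in the wild type, with 8 of 9 above 0 in log2 fold change, 0 called and none at 0 in all libraries, and the 6 heat shock genes to 360 to 396 against 345 to 363 CPM. The 8 choroid plexus markers given above had log2 fold changes below 0, and 0 were called. The 6 oligodendrocyte markers summed to 5818, 6236 and 5628 CPM in the knockout and 5142, 5524 and 5301 CPM in the wild type, so the genotypes were apart. Of these 6, 5 were above 0 in log2 fold change and 0 were called. The part of brainstem, microglia, oligodendrocytes and choroid plexus in the Fosl2 and Fos differences was not tested.

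**Figure D3:**
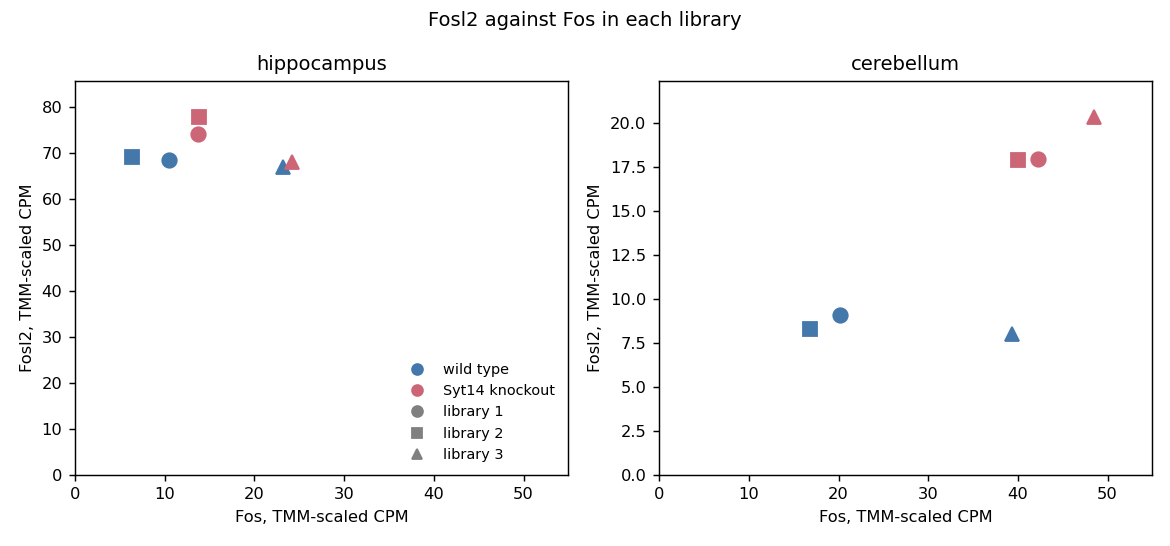
Fosl2 against Fos (both axes TMM-scaled CPM, linear from 0) in each library of the hippocampus (left) and cerebellum (right). In the cerebellum, wild-type library 3 has a Fos level of 39.4 CPM close to the knockout libraries but a Fosl2 level of 8.02 CPM like the other wild-type libraries.

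Ratios of raw counts within a library do not depend on the scaling between libraries. There were 0.200, 0.214 and 0.209 Fosl2 counts for each Jund count in the knockout cerebellum, against 0.106, 0.0973 and 0.0988 for wild type. In the hippocampus the ratio was 1.06, 1.24 and 0.918 against 0.954, 1.09 and 0.888, so there the genotypes overlapped. There were 3.96, 3.76 and 3.68 Fos counts for each Junb count in the knockout cerebellum, against 1.78, 1.92 and 2.34 for wild type. Wild-type library 3, which was close to the knockout in the level of Fos, was below it in this ratio, and its Junb level of 16.8 CPM was the highest of the cerebellum. In the hippocampus the ratio was 0.173, 0.199 and 0.264 against 0.168, 0.114 and 0.267. These ratios were chosen after the values had been seen and are a description.

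In the hippocampus the genotypes were compared in the same way. Results for immediate early genes in this comparison were known when the family was proposed, so its p-values are not independent of that choice. No member passed the edgeR test over 17693 genes, of which 0% (0 genes) passed and 767 (4.34%) had an unadjusted p under 0.05, Fosb among them. DESeq2 called 2 genes, neither a member, and limma-voom 0. Fosb was closest, at 11.3, 12.02 and 14.3 CPM in the knockout and 7.35, 7.83 and 12.2 CPM in the wild type, with a log2 fold change of 0.46 ± 0.17 (edgeR unadjusted p = 0.0219, adjusted p = 0.995). The groups overlapped because of wild-type library 3. Fos stood at 13.7, 13.8 and 24.1 against 10.5, 6.31 and 23.2 CPM (log2 0.38 ± 0.36, adjusted p = 0.995), and Junb at 78.9, 69.2 and 91.6 against 62.3, 55.2 and 86.8 CPM (0.23 ± 0.14, 0.995). For both genes library 3 was the highest of its group, and with 1 library left out the Fos value ranged from 0.04 (without wild-type library 2) to 1.04 (without wild-type library 3).

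Fosl2 stood at 74.2, 77.9 and 68.0 CPM in the knockout and 68.6, 69.3 and 66.9 CPM in the wild-type hippocampus (log2 0.11 ± 0.06, edgeR adjusted p = 0.995). Jun had a log2 fold change of 0.0016 ± 0.07, Jund of -0.02 ± 0.07 and Fosl1 of 0.05 ± 0.11, each with an adjusted p of at least 0.995. The direction of these 3 changed between settings. No member had groups that did not overlap, where 9.81% of genes did. The 10 meningeal markers summed to 96.7, 161 and 88.5 CPM in the wild type and 85.003, 91.6 and 73.8 CPM in the knockout, highest in wild-type library 2, which had the lowest Fos and Junb. Of these 10, 9 had log2 fold changes below 0 and 1 above, with a median of -0.57, and 0 were called. The 9 endothelium and pericyte markers summed to 368.3 to 412 CPM in the wild type against 319 to 356 CPM, so the genotypes were apart. All 9 had log2 fold changes below 0, with a median of -0.19, and 0 were called. The part of meninges or of endothelium and pericytes in the member levels was not tested.

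**Figure D4:**
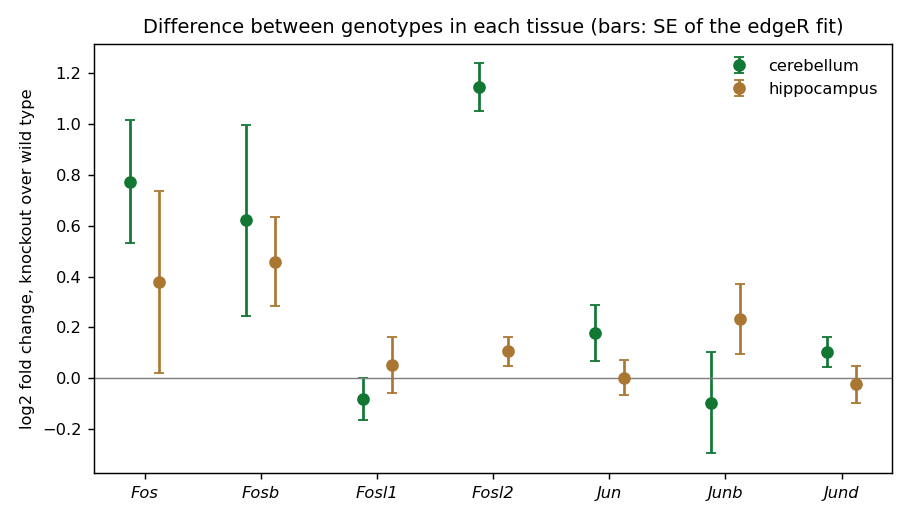
Log2 fold change of knockout over wild type (vertical axis) for each member in the cerebellum and the hippocampus, with the SE of the edgeR fit over 3 libraries per group. Fosl2 in the cerebellum, at 1.15, lies farthest from 0, and its value in the hippocampus is 0.11.

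The genotype effect on Fosl2 was 1.05 ± 0.10 log2 units smaller in the hippocampus than in the cerebellum (SE, fit of all 12 libraries). That difference contains the cerebellar contrast on which the family was singled out and is given as a description. For Fos it was -0.39 ± 0.53 (hippocampus effect minus cerebellum effect), for Fosb -0.17 ± 0.43, for Fosl1 0.13 ± 0.13, for Jun -0.18 ± 0.15, for Junb 0.33 ± 0.29 and for Jund -0.13 ± 0.10, and none of these 6 was past the threshold. Over all genes 0.0105% of 19027 were past it (2 genes).

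In both tissues and genotypes, library 3 had the highest level of its group for Fos, Fosb and Junb. In the hippocampus Fos was 24.1 and 23.2 CPM in knockout and wild-type library 3 and 6.31 to 13.8 CPM in the other 4 libraries. The libraries of that number come from 1 knockout and 1 wild-type animal, and the sources used here do not say what else they share. Over the 12 libraries, after the mean of each tissue was subtracted from log2 CPM, Pearson's r was 0.87 between Fos and Fosb, 0.76 between Fos and Junb and 0.75 between Fosb and Junb. Fosl2 had an r of 0.46 with Fos and -0.08 with Junb. These values describe 12 libraries that share animals and genotypes.

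By the same measure the genes most like each member were sought among 13093 protein coding genes with a mean of at least 1 CPM in both tissues. For Fosl2 they were Cck, the neuropeptide cholecystokinin (r = 0.96), Cd33 (0.91) and Ryr3, a calcium release channel (0.89). The genotype mean was not subtracted, so these r values contain the cerebellar Fosl2 difference on which the family was singled out. They are a description. For Fos they were Dusp1, a phosphatase of MAP kinases (0.95), Chml (0.92) and Aldh5a1, an enzyme of GABA breakdown (0.92). For Fosb they were Aldh5a1 (0.93), Dtnbp1 (0.90) and Gadd45b (0.90), and for Junb Yars, a tRNA synthetase (0.93), and the immediate early genes Egr1 (0.92) and Ier2 (0.91). For Jun they were Zfp532 (0.91), Ptprs (0.91) and Bcl9 (0.90), for Jund Prkcz (0.91), Gps2 (0.90) and Arpc1a (0.89), and for Fosl1 Lair1 (0.92), Zfp703 (0.88) and Ggnbp2 (0.88). Each gene named was picked for its place among the largest of 13093 values of r over 12 libraries. Such a maximum can be high among unrelated genes, and its level without any relation was not estimated. The likeness of every member is thus a description.

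The genes around the family were taken from 4 lists, chosen with earlier results of these data known. Their shares by direction are a description. Over all genes 0.0113% were called in the cerebellum and 0% in the hippocampus, so 0 calls in a list say little about its genes. Among other leucine zipper partners of AP-1, such as the Atf, Batf and Maf proteins, 10 of 14 were tested in the cerebellum and 0 were called. Their median log2 fold change was 0.08 beside 0.0025 over all genes. Atf3, a stress-induced partner, stood at 1.66, 2.04 and 2.72 against 1.70, 1.59 and 1.34 CPM (log2 0.48 ± 0.23, edgeR adjusted p = 0.736), and Atf4, of the integrated stress response, at 0.08 ± 0.04 (0.743). In the hippocampus 12 were tested and 0 were called, with a median of 0.0039 beside 0.0017. Mafk had 0.21 ± 0.11 and Jdp2, a repressor that dimerises with Jun, 0.11 ± 0.08 (adjusted p = 0.995 for each).

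Of the 31 kinases and factors that drive Fos and Jun transcription, 31 were tested and 0 were called in either tissue. The medians were -0.0023 in the cerebellum and -0.0038 in the hippocampus. In the hippocampus the smallest p-values belonged to Mapk7, the kinase ERK5, at 31.9, 28.8 and 26.8 against 25.0, 23.9 and 23.2 CPM (log2 0.28 ± 0.08, edgeR adjusted p = 0.995), and to Srf, which binds the CArG box (0.14 ± 0.05, 0.995). In the cerebellum they belonged to Crtc1, a coactivator of CREB (-0.16 ± 0.07, 0.709), and Mrtfa, a coactivator of Srf (-0.13 ± 0.07, 0.761).

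Of the 20 genes reported elsewhere as AP-1 targets, 17 were tested in the cerebellum and 0 were called. Of these 17, 13 were above 0, beside 51.0% of all genes, and the median was 0.13. Bdnf, the brain-derived neurotrophic factor, stood at 24.4, 22.7 and 20.8 CPM in the knockout against 18.2, 16.2 and 15.1 CPM (log2 0.46 ± 0.09, edgeR adjusted p = 0.339). Timp1, an inhibitor of matrix proteases, stood at 1.14, 1.12 and 1.03 against 0.712, 0.673 and 0.425 CPM (0.87 ± 0.28, 0.664). The groups of both genes were apart, as were those of 11.9% of all genes, 6.48% with the knockout higher. Both were named for the smallest p-values of the list, so this is a description. In the hippocampus 16 were tested and 0 were called, with a median of -0.02. Spp1 had -1.04 ± 0.48 there and Nptx2, a synaptic pentraxin, 0.27 ± 0.13 (adjusted p = 0.995 for each).

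Of 23 other immediate early genes 22 were tested in the cerebellum and 0 were called. Of these 22, 18 were above 0, beside 51.0% of all genes, and the median was 0.32. Nr4a2, an orphan nuclear receptor, stood at 45.0, 43.9 and 53.2 against 32.5, 24.8 and 27.0 CPM (log2 0.76 ± 0.10, edgeR adjusted p = 0.0559). Nr4a1 of the same family stood at 45.0, 42.5 and 54.0 against 27.5, 28.3 and 38.1 CPM (0.59 ± 0.12, 0.388). In the hippocampus 23 were tested and 0 were called, with 19 above 0, beside 50.8% of all genes, and a median of 0.15. Results for immediate early genes in this tissue were known when the family was proposed, so these counts are a description. Per1, of the circadian clock, had 0.30 ± 0.06 (0.792) there and Egr4 0.44 ± 0.12 (0.995). Between the wild-type tissues 15 of the 23 were higher in the hippocampus and 3 in the cerebellum, where 33.1% and 33% of all genes were.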

How the data were processed

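Poly(A) RNA of 12 libraries was sequenced, strand-specific by dUTP per the labels' protocols. Per the submitters' processing notes the tools were featureCounts 2.0.3, STAR 2.7.10 and Trimmomatic 0.39, and the genome mm10, also listed as GRCm38. The authors deposited raw counts per gene, 1 table per tissue. GENCODE M21 gave symbols and positions (54409 of 54446 identifiers matched), and exon lengths are unions of its exons.

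Each comparison was fitted alone with edgeR 4.0.16 in R 4.3.3 (filterByExpr with a minimum count of 10 and minimum total of 15, TMM factors, quasi-likelihood test, two-sided), with Benjamini-Hochberg adjustment over all genes tested and a threshold of 0.05. All 7 members passed the filter in every comparison, so the test planned for members below it was not needed. SE is the log2 change over the square root of F. Log2 CPM used a prior count of 2. The fits were tested on simulated data. The floor of 3 counts is 0.0858 to 0.123 CPM and covers counting error only. Libraries of 1 group differed by more than resampling would give (chi-square per gene 4.11 to 12.7). Replicates are separate animals.

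The members and gene lists were chosen with earlier results of these data known. Named are all members, Syt14, in each tissue any list gene past the threshold and up to 2 more per list by smallest p, and the 3 genes most like each member. Same-numbered libraries of the 2 genotypes, from different animals, deviated together in the cerebellum (r across 14318 genes 0.16, 0.24 and 0.30). In the hippocampus r was -0.025 and 0.0036 for numbers 1 and 2 and 0.11 for number 3. The tissues are paired by animal, and between them r was 0.048, 0.089 and 0.16 in wild-type and 0.044, 0.046 and 0.065 in knockout animals. Alternatives were DESeq2 1.42.0, limma-voom (limma 3.58.1), RLE factors, no filter, each library left out, a block, a fit of all libraries and, chosen after seeing the data, library sizes only. Tables used Python 3.11.15, pandas 2.3.3, numpy 2.4.6 and matplotlib 3.10.9.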

Additional observations from a re-analysis of the deposited data

Results flagged for a closer look

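Fosl2 was singled out because its genotype effect differed between the tissues: the effect in the hippocampus minus that in the cerebellum was -1.05 ± 0.10 on the log2 scale (SE, fit of all 12 libraries, 3 per group). The knockout level was above every wild-type level in 3 of 3 cerebellum libraries, while in the hippocampus the groups overlapped. Over the 18 alternative settings the difference lay between -1.10 and -0.98. This difference contains the cerebellar contrast for which the family was chosen, so it is not independent of that choice.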

How the results depend on the processing

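Among the member values under alternative settings, 453 kept their direction and side of the threshold, 16 reversed, 4 fell below the threshold and 3 passed it. These counts include values of Fosl2 that contain its cerebellar levels, on which the family was chosen, so for Fosl2 they are a description. In the cerebellum genotype comparison 417 genes were called without a filter on low counts, 36 with DESeq2, 36 with the replicate number as a block, 4 in the fit of all 12 libraries and 2 to 33 with 1 library left out, 33 without knockout library 3. Members called were 2 (Fos and Fosl2) without a filter and 1 to 2 with 1 library left out, the second being Fos without wild-type library 3. Calls of members in this comparison are not read as a test, since the family was chosen on it. In the hippocampus 77 genes were called without a filter, 2 with DESeq2, 2 with the replicate block and 0 to 2 with 1 library left out (2 without knockout library 3), and 1 member, Junb, without a filter (log2 0.23, adjusted p = 0.0470). For the difference between tissues 275 were called without a filter, 10 with DESeq2 and 2 to 44 with 1 library left out, 44 without cerebellum knockout library 3 and 4 without hippocampus wild-type library 1. The cause of these counts was not tested. The block changed no call of a member in any of the 5 comparisons.

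In the hippocampus Jun had a log2 fold change of -5.79e-04 with RLE factors, -0.0013 without a filter, -0.0072 with limma-voom, -0.0012 with DESeq2, -0.0036 with the block, -1.89e-04 in the fit of all libraries and -0.067 to 0.091 with 1 library left out. With 1 library left out, Jund ranged from -0.092 to 0.035 and Fosl1 from -0.0016 to 0.12 there, Junb from -0.29 to 0.20 in the cerebellum, and the difference between tissues from -0.86 to 0.27 for Fos and from -0.86 to 0.20 for Fosb. Fosb rested on few reads, with 21 to 66 counts per cerebellum library. CPM without TMM factors for members below the filter was not run, since no member was below it.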
